A study of Mus musculus with 70 samples.

Results

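Lazy Piggy medulloblastomas were ranked by Cntn2, and the 20 tumours with the highest level (Cntn2-high) were compared with the 20 with the lowest (Cntn2-low). Cntn2 encodes contactin 2, also called TAG-1, an adhesion protein that granule neurons of the cerebellum carry on their surface for a short time after their last division. The tumours were chosen by their Cntn2 level in CPM, the gene's read count scaled to the total reads of mouse genes in the library. The 10 highest and the 10 lowest libraries were taken separately among tumours labelled TAM+ and among tumours labelled TAM-, so that 40 of 59 labelled tumours fell in a class and 19 lay between the classes. Both classes rest on a measured value and are not groups of the study. Cntn2 itself is therefore described without a test and was left out of the results.

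The series holds RNA sequencing of bulk tissue from 70 libraries labelled as mouse medulloblastomas of the Sonic hedgehog type. By the genotype label, every Lazy Piggy tumour carried ptch1, nestin_luc_sb100 and nestin_cre together with rosa26_lsl_pbert2 and with lazy_piggy, a transposon that the SB100 transposase moves first and that the PBERT2 transposase can move again after tamoxifen. The nestin promoter drives SB100 and Cre, and 29 tumours were labelled TAM+ (tamoxifen) and 30 TAM-. A second model gave 10 tumours driven by SmoM2, a constitutively active Smoothened turned on by Math1-Cre, of which 7 were labelled Kcnb2 wild type and 3 Kcnb2 knockout, and these served as libraries that the ranking did not use. The library labelled wild-type replicate 3 has a title ending in MSK, like the knockout titles, while its count column ends in MS. Its genotype label was used, and a fit without it was also run. The labels do not say that tumours came from separate mice, so each p-value speaks of the spread among the sequenced libraries, which may be technical. In bulk tissue, fewer cells of a type and less RNA per cell cannot be told apart.

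Granule neuron progenitors divide at the surface of the cerebellum under Sonic hedgehog, which acts through Ptch1, Smoothened and the Gli factors, and Atoh1 keeps them in that state. After leaving the cell cycle they turn on Neurod1, Dcx and Cntn2, grow axons and migrate inwards, and later express the synapse and channel genes of mature granule neurons. Medulloblastomas of this type arise from these progenitors and can hold cells at several steps of this path.

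Cntn2 ran from 489 to 891 CPM (median 594) in the TAM+ Cntn2-high tumours and from 133 to 284 CPM (median 218) in the TAM+ Cntn2-low tumours. Among TAM- tumours the high class had 680 to 1413 CPM (median 835) and the low class 82.0 to 353 CPM (median 283). The tumours just outside the classes had 297 and 434 CPM in TAM+ and 359 and 600 CPM in TAM-, so the classes are cut from a continuous range with no gap at the lower limits. The limits also differ by treatment: 489 CPM is high among TAM+ tumours and lies in the middle range of TAM- tumours. Each library of the classes had 628 to 10105 Cntn2 reads, out of 5869618 to 8375513 reads in the high class and 6431670 to 8479127 in the low class.

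**Figure D1:**
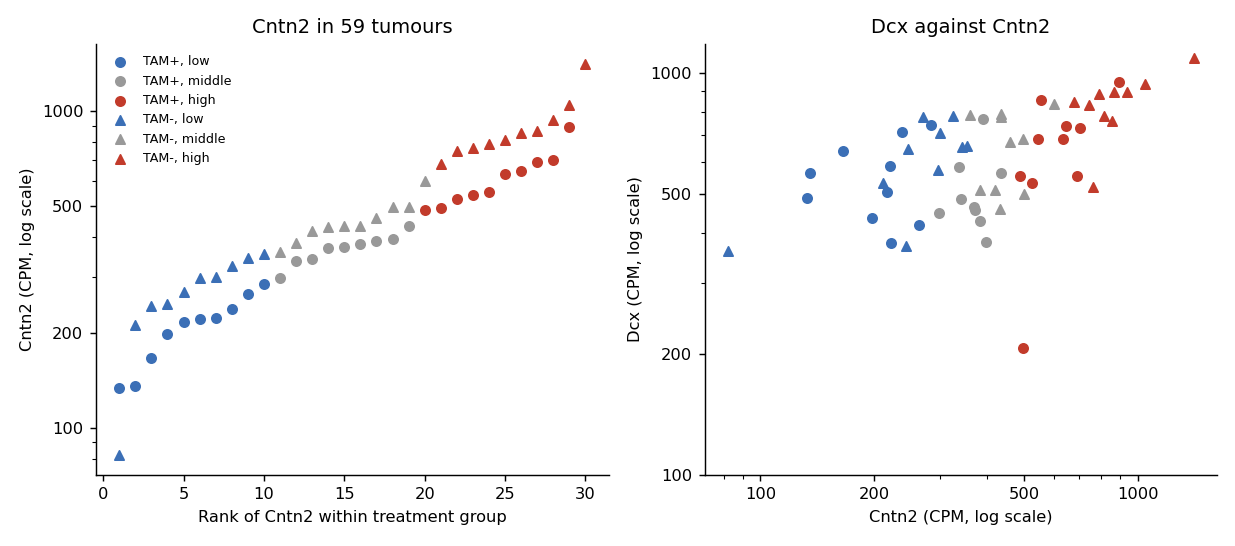
Cntn2 in the 59 labelled tumours by rank within the treatment group (left), and Dcx against Cntn2 (right), both in CPM on log axes; circles are TAM+, triangles TAM-, and colour gives the class. The classes are the ends of a continuous range, and the point lowest in Dcx among the classed tumours, at 207 CPM, is TAM+ replicate 14.

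Several features of the libraries moved with the classes, and their part in the results was not tested unless a value is given. A cerebellar marker score (mean log2 CPM of the mature oligodendrocyte and Purkinje cell markers) had a median of 2.98 in the high class and 2.05 in the low class, with 4.45 against 2.19 in TAM+ and 1.66 against 2.05 in TAM-. TAM+ replicate 14, a Cntn2-high tumour, stood apart: its cerebellar score was 7.67 (1.15 to 6.42 in the other 39 tumours), its mitosis score 4.85 (6.31 to 7.44) and its Dcx level 207 CPM (361 to 1084). Titles dated in the earlier period made up 6 of 20 high and 10 of 20 low tumours, and 10 high and 12 low tumours were male by their Y-linked genes.

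Cntn2-high tumours differed from Cntn2-low tumours in a broad set of genes. Of 13909 genes tested with edgeR, 2568 (18.5%) were higher and 2044 (14.7%) were lower in the high class at an adjusted p under 0.05, together 33.2%. Without TAM+ replicate 14 the counts were 2204 (15.8%) and 1935 (13.9%), together 29.7%. With the cerebellar score as a covariate they were 1578 (11.3%) and 950 (6.83%), together 18.2%, and with the mitosis score 1154 (8.3%) and 820 (5.9%), together 14.2%. The TAM+ tumours alone gave 932 (6.84%) and 455 genes (3.34%), together 10.2%. The TAM- tumours alone gave 1010 (7.53%) and 507 (3.78%), together 11.3%. No gene was called in opposite directions by the 20 against 20 comparison and any of these other fits. Because so many genes were called, counts over a gene list are read below against 18.5% higher and 14.7% lower, and against a median log2 fold change (Cntn2-high minus Cntn2-low) of 0.00 over all genes tested.

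Genes of the early postmitotic granule neuron were higher in the Cntn2-high tumours. Of 22 markers tested, 18 rose, none fell, and the median log2 fold change was 0.63. The count stayed at 18 without TAM+ replicate 14, with the cerebellar score as a covariate (median 0.61) and with the mitosis score as a covariate (median 0.61), while it was 17 in the TAM- tumours alone (median 0.75) and 12 in the TAM+ tumours alone (median 0.51). The 4 that did not pass were Insm1, Igfbpl1 and Cdkn1b, at -0.02, -0.02 and -0.01, and Tiam1, at 0.43.

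L1cam, an axonal adhesion molecule that binds contactin 2, had 59.6 to 216 CPM in the high class (median 103) and 12.5 to 77.2 CPM in the low class (median 35.6). In 17 of 20 high tumours it exceeded every low tumour, and its log2 fold change was 1.64 ± 0.16 (SE, edgeR adjusted p = 2.5e-09). Its value was 1.63 in TAM+, 1.66 in TAM- and 1.63 with the cerebellar score as a covariate. Its promoter is shown because, among the early postmitotic markers whose promoter holds an E-box of the kind bound by NeuroD factors, L1cam had the smallest p. The sequence is the 250 bases before the RefSeq start site on GRCm38.p6, minus strand, chrX:73880791-73881040, and the capitals mark the E-box CAGATG, 134 bases before the start site.
L1cam: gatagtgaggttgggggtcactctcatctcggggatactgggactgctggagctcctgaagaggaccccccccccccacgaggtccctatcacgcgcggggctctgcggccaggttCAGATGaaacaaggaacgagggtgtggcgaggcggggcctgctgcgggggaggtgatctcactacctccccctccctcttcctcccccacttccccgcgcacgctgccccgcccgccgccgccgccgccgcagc
Searched on both strands, CAGATG occurs in 14.5% of the 27025 promoters in that table, so a match describes the letters alone. Of the 13909 genes tested, 10330 matched a promoter entry by symbol, and CAGATG occurs in 9.69% of these. The share was 10.3% among matched genes called higher and 10.7% among those called lower. Unmatched genes are not covered by these shares.

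Mapt, which encodes the axonal microtubule protein tau, ran from 188 to 667 CPM (median 322) in the high class and from 97.6 to 234 CPM (median 139) in the low class. Its highest value was that of TAM+ replicate 14, and without that library the log2 fold change was 1.14 rather than 1.25 ± 0.13 (adjusted p = 8.38e-09 in edgeR). Stmn2, a stathmin of growing axons, had 261 to 802 CPM against 78.2 to 292 CPM. It was above every low tumour in 19 of 20 high tumours, and the change was 1.14 ± 0.13 (edgeR adjusted p = 6.98e-08). Neurod1, the transcription factor of granule neurons leaving the cycle, had 427 to 1282 CPM (median 694) against 144 to 778 CPM (median 367). These ranges overlapped more: 9 high tumours exceeded all low ones, and the change was 1.02 ± 0.13 (adjusted p = 2.98e-07 in edgeR).

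Dcx, a microtubule protein of migrating neurons, rose by a smaller amount. It had 207 to 1084 CPM in the high class (median 768) and 361 to 780 CPM in the low class (median 579), and the classes overlapped widely. Its change was 0.38 ± 0.12 on the log2 scale (edgeR adjusted p = 0.0139). It was 0.43 without TAM+ replicate 14, 0.49 with the cerebellar score and 0.56 with the mitosis score as a covariate. Dcx passed the test in the TAM- tumours alone (0.50, adjusted p = 0.0278 in edgeR), while its value in TAM+ alone was 0.25.

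Of the higher genes that met the conditions for naming, given with the processing below, 10 were taken by smallest p. These were Sez6, Mmp24, Ephb1, Mllt11, Celf4, L1cam, Cacna2d3, Sobp, Trim46 and Jph4. Celf4, a neuronal RNA-binding protein, had 158 to 428 CPM in the high class and 67.5 to 156 CPM in the low class, and the classes did not overlap. Mllt11, at 80.2 to 166 CPM against 43.9 to 78.0 CPM, and Trim46, which organizes microtubules of the proximal axon, at 24.7 to 53.3 CPM against 10.9 to 24.7 CPM, also kept all 20 high tumours above the 20 low ones. Their log2 fold changes were 1.25 ± 0.12 for Celf4, 1.03 ± 0.10 for Mllt11 and 0.89 ± 0.09 for Trim46 (edgeR adjusted p = 1.76e-09, 1.76e-09 and 5.09e-09). Sez6, a membrane protein of dendrites, Mmp24, a membrane-bound metalloprotease, and Ephb1, an ephrin receptor, changed by 1.45, 1.35 and 1.31, each with an adjusted p of 1.76e-09 in edgeR. All 10 passed the test in TAM- tumours alone, with either covariate, and with each of the 40 libraries left out.

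**Figure D2:**
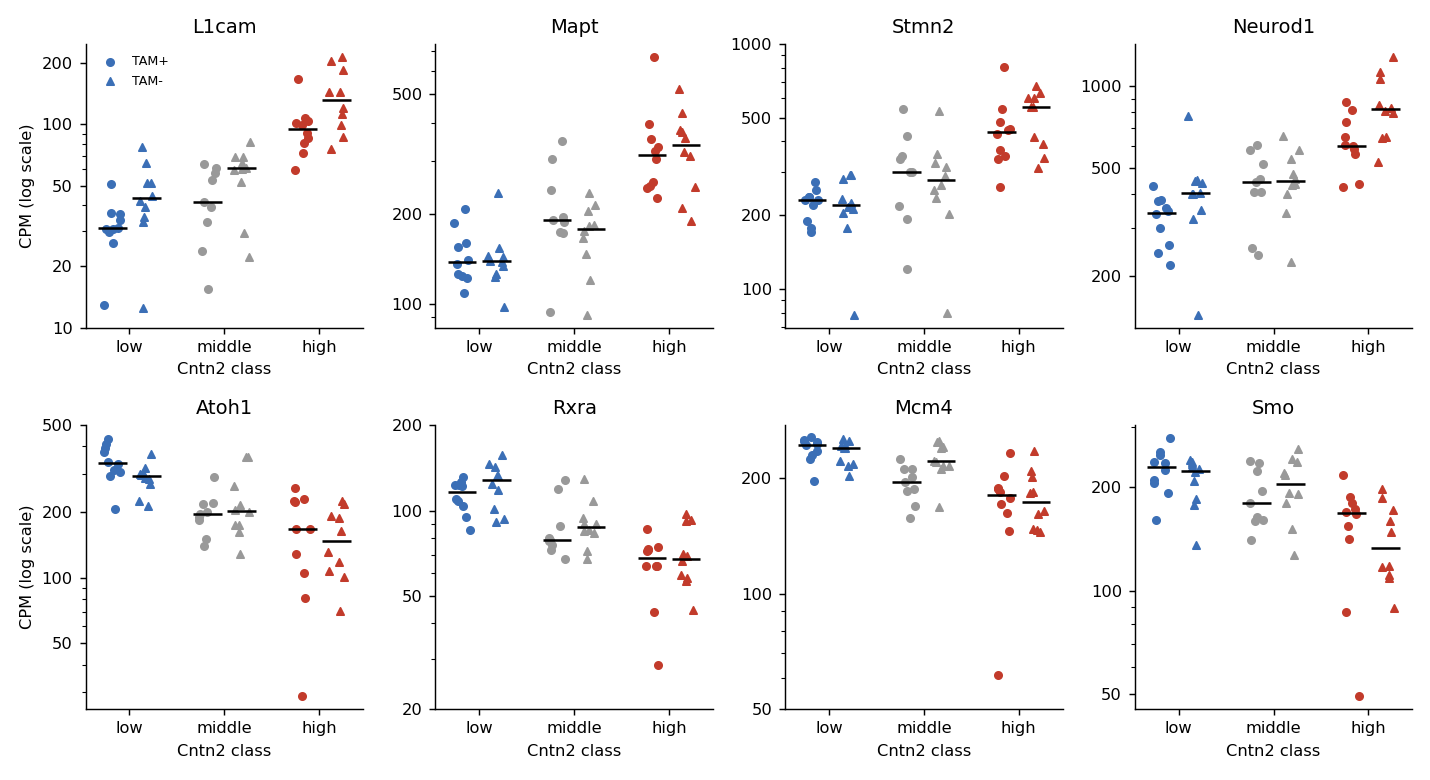
CPM (log axes) of 4 genes higher and 4 genes lower with Cntn2, by class; each point is a tumour, circles TAM+ and triangles TAM-, and bars are medians of each class within a treatment group. For every gene drawn the median of the middle tumours lies between those of the low and high tumours in both treatment groups.

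Of 28 granule lineage transcription factors tested, 13 rose and 1 fell (median 0.33), against 11 and 1 with the cerebellar score as a covariate. Myt1, a zinc-finger factor of differentiating neurons, had 80.7 to 249 CPM in the high class and 47.4 to 148 CPM in the low class. Its change was 0.92 ± 0.10 (adjusted p = 1.57e-08 in edgeR), and 12 high tumours exceeded every low one. Zic1, a factor that granule cells keep throughout, rose by a smaller amount, with 1162 to 2125 CPM against 901 to 1481 CPM and a change of 0.44 ± 0.07 (adjusted p = 8.86e-06 in edgeR).

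Atoh1 was the factor that fell. The progenitor factor had 28.8 to 257 CPM in the high class (median 165) and 207 to 434 CPM in the low class (median 304), and 14 of 20 high tumours lay below every low tumour. Its log2 fold change was -0.98 ± 0.16 (adjusted p = 1.36e-05 in edgeR), -0.93 without TAM+ replicate 14, whose 28.8 CPM was the lowest value, and -0.86 with the cerebellar score. The middle tumours had medians of 195 CPM in TAM+ and 202 CPM in TAM-, between 336 and 167 CPM and between 291 and 147 CPM of the low and high tumours of the same treatment.

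Genes on the list of Hedgehog targets were lower in part. The list also holds components of the pathway, such as Smo and Boc, so its counts do not measure target output alone. Of 17 tested, 7 fell and 1 rose (median -0.27), and 15 of 17 had a value below 0. Smo, the transducer of the pathway, had 49.5 to 217 CPM in the high class and 136 to 278 CPM in the low class, a change of -0.55 ± 0.11 (adjusted p = 0.000351 in edgeR). The Hedgehog co-receptor Boc changed by -0.43 ± 0.09 and lay below every low tumour in 14 of 20 high tumours (adjusted p = 0.00058 in edgeR). Ccnd1, the cyclin of early cell cycle entry, had a median of 607 CPM against 855 CPM and changed by -0.54 ± 0.12 (adjusted p = 0.000842 in edgeR). Sfrp1, a secreted Wnt antagonist, changed by -0.50 ± 0.13 (adjusted p = 0.00378 in edgeR). The member that rose was Hsd11b1, which interconverts glucocorticoids, at 1.13, but it did not pass without TAM+ replicate 14 (0.90, adjusted p = 0.104 in edgeR) and had 0.05 with the cerebellar score as a covariate. With that covariate 4 members were lower and none higher, and Ptch1 and Mycn, at -0.25 and -0.24, did not pass in the 20 against 20 comparison.

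DNA replication genes were lower in the Cntn2-high tumours. Of 32 tested, 29 fell, none rose, and the median was -0.36. The count of lower members was 29 without TAM+ replicate 14, 21 with the cerebellar score, 10 with the mitosis score (median -0.18), 18 in TAM+ alone and 12 in TAM- alone. Mcm4, a subunit of the replicative helicase, had 61.4 to 236 CPM in the high class (median 181) and 197 to 256 CPM in the low class (median 242), and 15 of 20 high tumours lay below every low tumour. Its log2 fold change was -0.42 ± 0.08 (adjusted p = 0.000131 in edgeR). Mcm5 and Mcm2, other subunits, changed by -0.41 ± 0.08 and -0.53 ± 0.10 (edgeR adjusted p = 0.000172 and 0.000218). These are moderate changes, with medians of 219 against 290 CPM for Mcm5 and 270 against 410 CPM for Mcm2. The Mcm5 promoter is shown because, among replication genes whose promoter holds the E2F motif TTTCGCGC, Mcm5 had the smallest p. It is the 250 bases before the start site on GRCm38.p6, plus strand, chr8:75109259-75109508, with the motif in capitals, 153 bases before the start site.
Mcm5: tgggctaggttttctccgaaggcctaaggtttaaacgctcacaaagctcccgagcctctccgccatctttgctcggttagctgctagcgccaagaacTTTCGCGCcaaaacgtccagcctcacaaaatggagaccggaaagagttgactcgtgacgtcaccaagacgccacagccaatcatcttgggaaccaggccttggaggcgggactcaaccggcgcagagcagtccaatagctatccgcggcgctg
Searched on both strands, TTTCGCGC occurs in 0.255% of the promoters in the table. Among matched genes it occurs in 0.484% of those tested, 0.10% of those called higher and 1.04% of those called lower. Such a match describes the letters alone.

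Of 25 mitosis genes tested, 15 fell and none rose (median -0.29). Ccnb2 and Ccna2, cyclins of late cell cycle phases, changed by -0.54 ± 0.10 and -0.41 ± 0.09 (edgeR adjusted p = 0.000211 and 0.000624), and 12 and 10 of the high tumours lay below every low one. Cdk1, their kinase partner, had a median of 120 against 142 CPM and changed by -0.39 ± 0.11 (adjusted p = 0.00609 in edgeR). The count of lower members was 18 without TAM+ replicate 14, but 3 with the cerebellar score, 2 in TAM+ alone and 3 in TAM- alone. With the mitosis score it was 2, but that score is the mean log2 CPM of these same genes, so the drop follows from its construction.

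Among 15 genes linked to leaving the cell cycle, 1 rose and 3 fell (median 0.03). The one that rose was Cdk5r1, which activates the neuronal kinase Cdk5 and is not itself a brake on division, at 0.62 ± 0.10 (adjusted p = 8.19e-06 in edgeR). The ones that fell were Rbl1, a relative of the retinoblastoma protein, at -0.34, and the kinase inhibitors Cdkn2c, at -0.29, and Cdkn1c, at -0.48. Cdkn1c lost the call in 20 of the 40 fits that left out a library. The best known inhibitor of this lineage, Cdkn1b (p27), was at -0.01.

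Several other genes that fell stood out by their p. Rxra, a nuclear receptor for retinoids, had 28.4 to 97.0 CPM in the high class and 85.6 to 157 CPM in the low class. In 16 of 20 high tumours it lay below every low tumour (adjusted p = 8.99e-08 in edgeR). Rfc1, the large subunit of the replication clamp loader, changed by -0.50 ± 0.07, Zfp36l1, which promotes decay of messenger RNA, by -0.69 ± 0.11, and the lipoprotein receptor Scarb1 by -0.58 ± 0.09 (edgeR adjusted p = 3.55e-06, 7.66e-06 and 6.72e-06). Nsmf, Btbd11, Ppic, Rbbp7 and Tmcc3 completed the group, at -0.24 to -0.69. Ntsr1, a neurotensin receptor, was among the largest falls and passed in each treatment group alone, with 0.540 to 9.04 CPM against 3.92 to 38.6 CPM and a change of -1.93 ± 0.32 (adjusted p = 2.49e-05 in edgeR).

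Tubulins and microtubule proteins followed the early postmitotic genes. Of 28 tested, 18 rose and 1 fell (median 0.49), and with the cerebellar score 18 rose and none fell (median 0.52). Tubb2b, a tubulin of young neurons, had 392 to 1301 CPM in the high class (median 778) and 334 to 633 CPM in the low class (median 399). It changed by 0.88 ± 0.12 (adjusted p = 1.43e-06 in edgeR), and 13 high tumours exceeded every low tumour. Stmn4 changed by 0.93 ± 0.14 (adjusted p = 5.21e-06 in edgeR). The member that fell was Tuba1b, a tubulin of most cell types, at -0.30.

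Adhesion molecules related to contactin 2 and its partners rose in 12 of 22 tested and fell in 2 (median 0.50). Cadm3, a synaptic adhesion molecule, changed by 1.17 ± 0.16, Cntnap4, of the contactin-associated family, by 1.42 ± 0.20, and Astn2, an astrotactin of migrating granule neurons, by 0.82 ± 0.12 (edgeR adjusted p = 1.43e-06, 2.48e-06 and 6e-06). For Cntnap4 the ranges were 14.3 to 58.3 CPM against 2.22 to 19.7 CPM. The members that fell were Cadm1, at -0.37, and Jam3, at -0.31, both present across many cell types. Of the other contactins, Cntn6 rose, at 1.65, but had 0.24 with the cerebellar score as a covariate, and Cntn1, Cntn3 and Cntn4 did not pass, at 0.43, 0.38 and 0.53.

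Guidance and migration genes were mixed, with 17 of 39 higher and 4 lower (median 0.27). Reln, the secreted protein that granule cells make, had 339 to 1154 CPM against 156 to 668 CPM and changed by 1.09 ± 0.15 (adjusted p = 1.99e-06 in edgeR). Plxna2, a semaphorin receptor of granule cells, changed by 0.91 ± 0.15, and the ephrin Efnb2 by 0.69 ± 0.13 (edgeR adjusted p = 1.34e-05 and 8.4e-05). The 4 that fell were Cxcr4, the chemokine receptor that holds progenitors at the surface, at -0.82, the neurotrophin receptor Ntrk3 at -0.51, the Slit receptor Robo1 at -0.27 and the polarity protein Pard3 at -0.20. Without TAM+ replicate 14, Robo1 and Pard3 did not pass (edgeR adjusted p = 0.055 and 0.0767). Cxcl12, which binds Cxcr4, rose by 0.68.

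**Figure D3:**
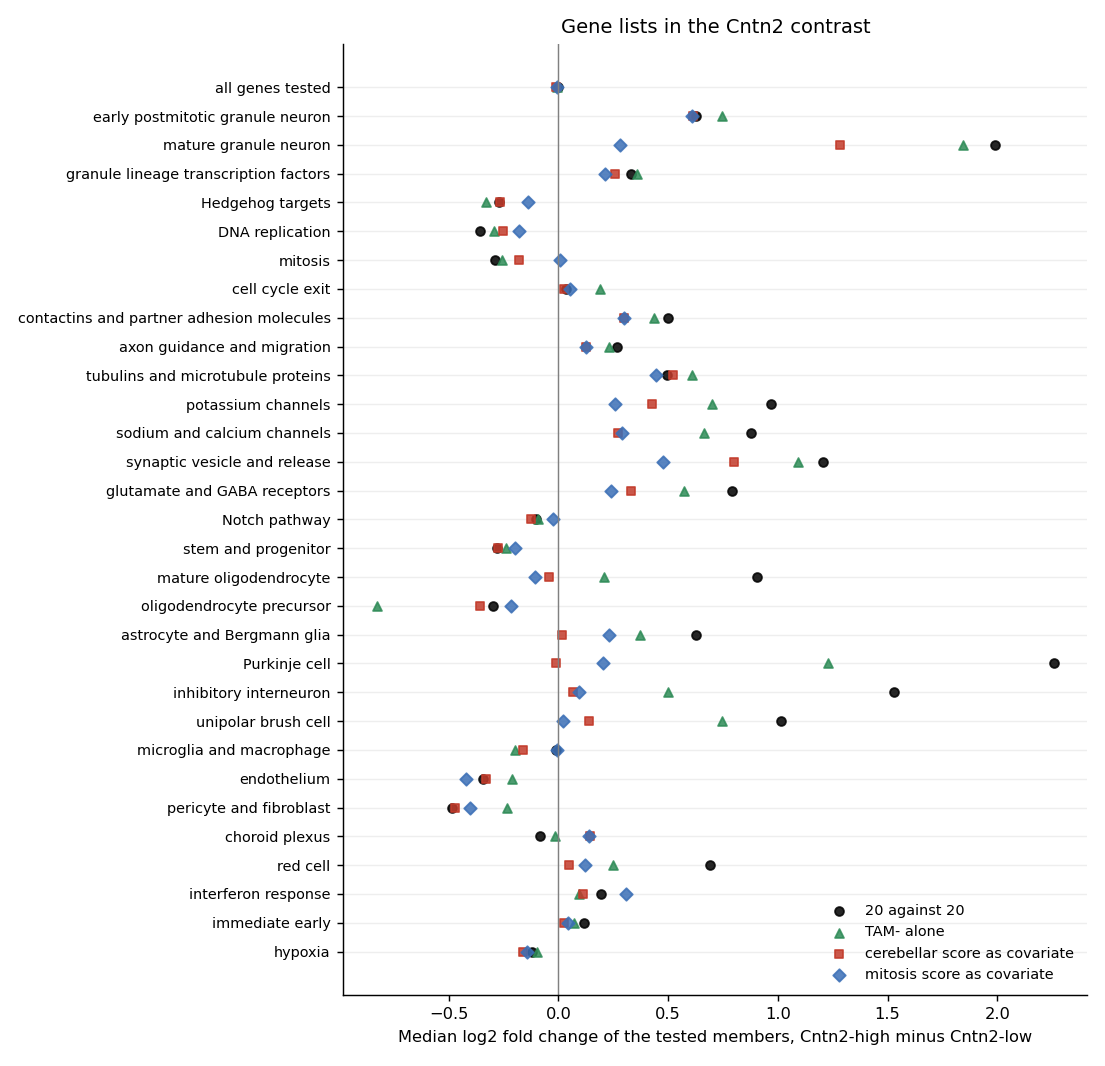
Median log2 fold change (Cntn2-high minus Cntn2-low) of the tested members of each gene list, for the 20 against 20 comparison, for TAM- tumours alone, and with the cerebellar or the mitosis score as a covariate. The early postmitotic list lies between 0.61 and 0.75 in the fits drawn (TAM+ alone, at 0.51, is not drawn), and the mature granule neuron list between 0.28 and 1.99. The cerebellar score is built from the Purkinje cell and oligodendrocyte markers, and the mitosis score from the mitosis genes. Values of these lists near 0 with their own score as a covariate follow from its construction.

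Mature granule neuron genes also rose, by amounts that varied between fits. Of 20 tested, 19 rose and none fell, with a median of 1.99. Without TAM+ replicate 14 the count was 14 (median 1.64), with the cerebellar score 13 (median 1.28), with the mitosis score 2 (median 0.28), in TAM+ tumours alone 7 (median 2.06) and in TAM- tumours alone 5 (median 1.85). Their summed level ran from 485 to 13240 CPM in the high class and from 340 to 2554 CPM in the low class. Markers of other cerebellar cells moved with them: all 13 Purkinje cell markers tested rose (median 2.26), as did 8 of 11 inhibitory interneuron markers (median 1.53) and 4 of 14 of astrocytes and Bergmann glia (median 0.63). Of 11 mature oligodendrocyte markers 2 rose (median 0.90), near the share of all genes called higher. In TAM- tumours alone 2 of 9, 0 of 7, 1 of 14 and 0 of 6 tested members of these lists passed (medians 1.23, 0.50, 0.37 and 0.21). In TAM+ tumours alone it was 4 of 13, 1 of 10, 5 of 14 and 0 of 9 (medians 2.74, 1.75, 0.80 and 1.18). Either group alone has 10 tumours per class, so these counts are not comparable with those of 20 against 20. With the cerebellar score as a covariate the Purkinje cell and oligodendrocyte lists, from which that score is built, are brought near 0 by construction, and 0 interneuron markers and 1 astrocyte marker passed (medians 0.07 and 0.02). Without TAM+ replicate 14, 3 Purkinje cell markers (median 1.57) and 3 interneuron markers (median 1.15) rose. Purkinje cell markers summed to 164 to 10160 CPM in the high class and 146 to 1409 CPM in the low class, and oligodendrocyte markers to 114 to 3750 and 116 to 2026 CPM. No marker of these lists that is in the table was at 0 in all tumours of a class.

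Grm4, a metabotropic glutamate receptor of parallel fibres, had 8.42 to 634 CPM in the high class (median 38.9) and 1.57 to 77.4 CPM in the low class (median 6.15). The highest value was that of TAM- replicate 16, which also had the highest mature granule neuron score of the TAM- Cntn2-high tumours (7.59, median 3.99). Its Purkinje cell and mature oligodendrocyte scores were only 1.89 and 1.28. The ranges of Grm4 overlapped, and the change was 2.80 ± 0.58 (adjusted p = 0.000409 in edgeR). It was 2.44 with the cerebellar score, and 0.99 with the mitosis score as a covariate, where it did not pass (adjusted p = 0.269 in edgeR). Slc17a7, the vesicular glutamate transporter of parallel fibres, had 2.38 to 1082 CPM against 1.04 to 150 CPM, and Gabra6, a GABA receptor subunit of mature granule cells, had 0 to 898 CPM against 0 to 148 CPM. Their changes were 2.73 ± 0.74 and 2.45 ± 0.88 (edgeR adjusted p = 0.00455 and 0.0293). Gabra6 did not pass without TAM+ replicate 14 (1.92, adjusted p = 0.079 in edgeR), nor without TAM- replicate 11. Fat2, a large cadherin of granule cells, and Grin1, the common NMDA receptor subunit, changed by 2.00 ± 0.36 and 1.98 ± 0.31 and passed with both covariates.

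Genes of the synapse and of ion channels rose widely. For vesicle and release genes 25 of 30 rose and none fell (median 1.21), with 24 under the cerebellar score (median 0.80) and 14 under the mitosis score (median 0.48). Rab3a, a vesicle GTPase, had 72.5 to 403 CPM against 19.9 to 101 CPM, with a change of 1.44 ± 0.19 (adjusted p = 5.65e-07 in edgeR). Of 32 glutamate and GABA receptor genes 19 rose (median 0.79), among them the AMPA receptor subunit Gria2, with 255 to 523 CPM against 145 to 404 CPM and a change of 0.78 ± 0.11 (adjusted p = 1.22e-06 in edgeR). Of 29 sodium and calcium channel genes 17 rose (median 0.88). The calcium channel subunit Cacna2d3 led them, at 1.59 ± 0.16, with 14.5 to 61.8 CPM against 5.67 to 17.7 CPM (adjusted p = 4.14e-09 in edgeR).

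On the list of potassium channels, 28 of 43 genes tested rose and none fell (median 0.97); the vessel channel gene Kcnj8, described with the pericyte markers, is not on that list and fell. With the cerebellar score 16 rose (median 0.43), and with the mitosis score 7 (median 0.26). Those with the smallest p were leak channels and an inward rectifier: Kcnk1 changed by 1.32 ± 0.16, Kcnk10 by 1.21 ± 0.16, Kcnk2 by 1.04 ± 0.15 and Kcnj3 by 1.17 ± 0.17 (edgeR adjusted p = 2.22e-07, 5.65e-07, 1.99e-06 and 4.24e-06). For Kcnk10 the ranges were 4.82 to 17.4 CPM against 1.88 to 7.05 CPM. All 4 also passed under both covariates and in each treatment group alone. Kcnb2, the channel gene the study deleted in the other model, had 2.94 to 13.9 CPM in the high class (median 7.81) and 2.83 to 12.9 CPM in the low class (median 6.38). It did not pass, at 0.34 ± 0.17 (adjusted p = 0.124 in edgeR).

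Notch pathway genes did not move together: 3 of 20 rose and 4 fell (median -0.10), close to the shares of all genes. Hey1, a transcriptional repressor induced by Notch, had 59.2 to 314 CPM against 249 to 484 CPM and changed by -0.61 ± 0.11 (adjusted p = 0.000114 in edgeR). The fringe enzymes, which add sugars to Notch, differed in sign, with Rfng at 0.39, Mfng at -0.73 and Lfng at -0.34. Stem and progenitor genes fell in 5 of 18 and rose in none (median -0.28), led by Sox9, at -0.59 ± 0.12 (adjusted p = 0.000521 in edgeR), with Sox2 at 0.05.

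Vessel markers were lower in part. Pericyte and fibroblast markers fell in 5 of 16 (median -0.49), and endothelial markers fell in 6 of 18 (median -0.35). Abcc9, a subunit of the pericyte potassium channel, had 6.21 to 34.1 CPM in the high class and 19.8 to 106 CPM in the low class, a change of -1.15 ± 0.20 (adjusted p = 5e-05 in edgeR). In 16 of 20 high tumours it lay below every low tumour, and Kcnj8, the other subunit of that channel, changed by -0.86 ± 0.22 (adjusted p = 0.00314 in edgeR). With the cerebellar score the medians were -0.47 and -0.33, with 3 members of each list lower. In TAM- tumours alone they were -0.24 and -0.21. Of 19 microglia and macrophage markers, none passed in either direction in edgeR (median -0.01), while 2 were lower in TAM- tumours alone.

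Eomes, a transcription factor of unipolar brush cells, was among the largest rises. It had 0.731 to 25.9 CPM in the high class (median 5.83) and 0 to 3.93 CPM in the low class (median 0.785), and 12 high tumours exceeded every low one. The change was 2.63 ± 0.42 (adjusted p = 1.28e-05 in edgeR), with 2.69 in TAM+ and 2.56 in TAM-. It was 2.22 with the cerebellar score and 1.69 with the mitosis score and passed with each. Of the 5 markers of that cell type tested, 3 rose, among them Plcb4, a phospholipase, at 1.01. Without TAM+ replicate 14, and likewise with the cerebellar score as a covariate, 2 of the 5 rose.

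Whether the contrast differed between TAM+ and TAM- tumours was tested with an interaction term. edgeR called 0 of 13909 genes, with 376 at an unadjusted p under 0.05 and a smallest adjusted p of 0.9998. The same term without TAM+ replicate 14 gave 0 genes, with 346 at an unadjusted p under 0.05, and with the cerebellar score 0 and 338. Of the genes higher between the classes, 54.2% had a positive term, that is, a larger value in TAM+. It was 31.3% without TAM+ replicate 14 and 17.5% with the cerebellar score, against 47.6%, 46.3% and 46.3% of all genes. Of the lower genes, 59.4%, 42.4% and 28.3% had a negative term in these fits. Genes are not independent of each other, so these shares are a description. A difference between the treatments of a size that the interaction test would miss cannot be told from none.

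The SmoM2 tumours gave libraries of another model, in which Cntn2 ran from 530 to 1267 CPM (median 898). Each gene's slope per doubling of Cntn2 was fitted over these 10 tumours with the genotype label as a covariate. edgeR called 0 of 19863 genes at an adjusted p under 0.05 (smallest 0.251), and 1412 had an unadjusted p under 0.05 (3.5% with a positive and 3.6% with a negative slope). The sign of the slope nevertheless ran with the Lazy Piggy contrast: of the genes higher there, 2191 of 2509 found (87.3%) had a positive slope, and of the genes lower there, 1715 of 2003 (85.6%) had a negative one, whereas 45.7% of all genes found had a positive slope. Genes are not independent of each other, so these shares are a description. Under the other fits of these tumours the shares were 85.1% to 90.6% and 80.5% to 89.3%. Wild-type replicates 4 to 7 had titles of another form than the rest and fewer reads (23923453 to 28134594 against 32838448 to 39387125). Their Cntn2 was also lower in part, at 530 to 931 against 855 to 1267 CPM. Cntn2, title form and read total cannot be fully told apart here. With title form in place of genotype as the covariate, 819 genes had an unadjusted p under 0.05 in edgeR (smallest adjusted p 0.96). In that fit the shares were 90.6% and 80.5%.

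By list, 21 of 22 early postmitotic markers had a positive slope, with a median of 0.72 against -0.03 over all genes, and 13 of the 22 had an unadjusted p under 0.05 and a positive slope, against 3.5% of all genes. For replication genes 31 of 32 slopes were negative (median -0.32), and the median of the Notch list was -0.45. Myt1 had a slope of 1.03 ± 0.22 and L1cam one of 1.46 ± 0.44 (unadjusted p = 0.000852 and 0.00736 in edgeR). Olig2, a factor of progenitors and of oligodendrocyte precursors, had -1.17 ± 0.20 (unadjusted p = 0.000161 in edgeR), and Atoh1 had -0.66 ± 0.28 (unadjusted p = 0.0423 in edgeR). All 20 mature granule neuron genes had a positive slope (median 1.02), none of them with an unadjusted p under 0.05. The 2 lists of the cerebellar score differed here. Purkinje cell markers, which rose with Cntn2 in the Lazy Piggy tumours, had a positive slope in 6 of 13 (median -0.08). Mature oligodendrocyte markers had one in 11 of 11 (median 0.92). No member of either list had an unadjusted p under 0.05 in edgeR.

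**Figure D4:**
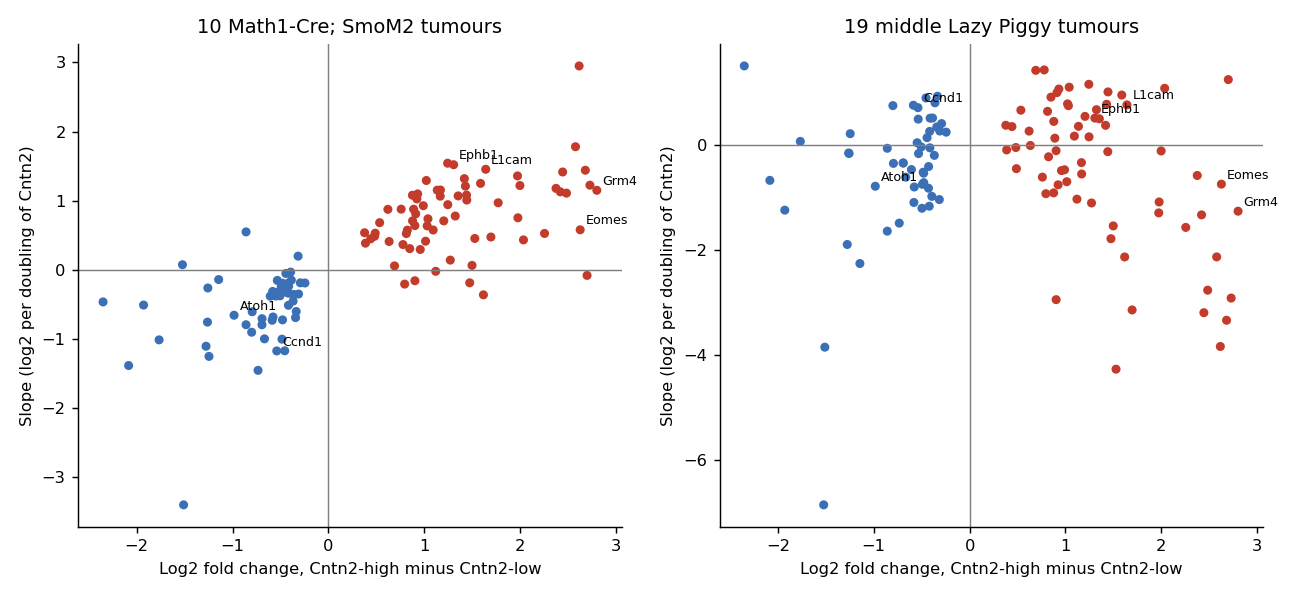
Slope per doubling of Cntn2 (log2) in the SmoM2 tumours (left) and in the 19 middle Lazy Piggy tumours (right) against the log2 fold change between the Cntn2 classes, for the named genes past the threshold; red is higher and blue lower in the high class. On the left 63 of 69 higher genes have a positive slope and 49 of 52 lower genes a negative one; on the right it is 30 of 68 and 33 of 52.

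The 19 middle Lazy Piggy tumours did not repeat the contrast within their narrow range of Cntn2. edgeR called 0 of 13706 genes, with 1049 at an unadjusted p under 0.05 (3.88% with a positive and 3.77% with a negative slope). Of the genes higher between the classes, 948 of 2533 found (37.4%) had a positive slope, and of the lower genes, 891 of 2033 (43.8%) had a negative one. Of all genes found, 48.6% had a positive slope. Mitosis genes had a positive slope in 25 of 25 and replication genes in 25 of 32, opposite in sign to the class contrast, and mature granule neuron genes in 1 of 20 (median -1.35). Of the early postmitotic markers 15 of 22 had a positive slope (median 0.27). The slopes were imprecise, with a median SE of 0.60 over the named genes, against 0.15 for the class contrast.

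Levels of cerebellar markers also differed among these tumours. The middle TAM+ tumours had a median cerebellar score of 5.10, above both the high (4.45) and the low (2.19) TAM+ tumours. With that score as a covariate the share of positive slopes among the higher genes was 46.7%, near the 48.0% of all genes found. The share of negative slopes among the lower genes was 49.0%, so the contrast was not repeated in that fit either. For the early postmitotic list as a whole, the middle tumours lay between the ends: the median score (mean log2 CPM) was 7.48, 7.66 and 8.02 in low, middle and high TAM+ tumours and 7.53, 7.78 and 8.22 in TAM- tumours. Single genes did not all keep that order: Dcx in TAM+ had medians of 534, 462 and 684 CPM. The replication score ran the other way, with 6.77, 6.52 and 6.43 in TAM+ and 6.75, 6.67 and 6.44 in TAM-. In TAM+ no such order held for the mitosis score (7.24, 6.93 and 7.08), the Hedgehog score (6.84, 6.86 and 6.75) or the mature granule neuron score (3.26, 5.85 and 5.68). In TAM- the medians of these 3 scores did keep an order. They were 7.29, 7.21 and 6.98 for mitosis, 6.81, 6.79 and 6.55 for Hedgehog, and 3.07, 3.80 and 3.99 for mature granule neurons.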

How the data were processed

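Bulk RNA was sequenced from mouse medulloblastomas. The authors deposited 1 table of whole-number read counts per gene for each model, not normalized. Per the labels' protocols, RNA went into TruSeq libraries. STAR 2.5.4b and the build mm9 are named, per the submitters' processing notes, without a role. How reads were counted, with which annotation and whether by strand, is not given in the sources used here, so reads of overlapping or antisense genes cannot be told apart. Gene symbols came from a reference table of Ensembl gene names, which matched 32882 of 37954 gene rows holding 99.3% of the counts of the Lazy Piggy table. Its 10 construct rows stayed out of library sizes and tests.

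From the counts, CPM was computed per library, and libraries were classed by Cntn2 CPM within treatment. Counts of the 40 tumours were tested with edgeR 4.0.16 in R 4.3.3 (quasi-likelihood, TMM, filterByExpr with a smallest count of 10, treatment as covariate, Benjamini-Hochberg over all genes, adjusted p of 0.05). A standard error is the log2 fold change over the square root of F. Scores used log2 CPM with a prior count of 2. Sex was read from 4 Y-linked genes, with over 10 CPM marking a male. The period of a date-like title changes in month 7 of year 16. No pair among 1711 pairs of the 59 tumours had counts alike within sampling noise (chi-square per degree of freedom at least 8.92).

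The members, the 32 gene lists and the tests were chosen with earlier results of these data known. Named genes are Dcx, Kcnb2, the 10 higher and 10 lower genes of largest change and the 10 of smallest p in each direction (adjusted p under 0.05, mean log2 CPM of at least 1, an official symbol, the same sign in TAM+ and TAM-), and up to 4 members per list of smallest p. A few genes that the rule names are not reported here, though they entered every fit and list count. Other list members were named after their values were seen. The promoters shown were also picked after the values were seen. Promoter sequences are from RefSeq (GRCm38.p6), another build than mm9. Alternatives included DESeq2 1.42.0, other size factors, filters, class sizes and covariates, and leaving out each library. On simulated counts for 13910 genes the test recovered 24% of 1.25-fold, 74% of 1.5-fold, 92% of 2-fold and 96% of 4-fold changes, with 11 false among 154 calls. Only 50 genes were changed at each fold there, whereas 33.2% of genes were called in the data, so the rates describe that setting alone. No protein sequences were used here.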

Additional observations from a re-analysis of the deposited data

Results flagged for a closer look

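For each named gene, the 10 tumours of a class within a treatment group were searched for a highest or lowest value set off from the other 9 by an unusual share of the range. Of 488 such sets, 62 had one, in 55 genes. For normally distributed values chance alone would set off about 1 set in 20. That condition was not checked for CPM, and the sets share libraries, so the count is a description and no measured excess. TAM+ replicate 14 accounts for 26 of the 62, and the total counts of genes called without it are given above.

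Among the 10 TAM+ Cntn2-high tumours, TAM+ replicate 14 was set off below the rest in cell cycle genes, with Mcm4 at 61.4, Mcm5 at 85.5, Ccna2 at 101, Birc5 at 20.7, Cdk1 at 24.9, Rbl1 at 17.6, Cdkn2c at 41.4 and Ccnd1 at 169 CPM. The same held for the progenitor and glial precursor genes Atoh1 at 28.8, Sox9 at 39.3, Hey1 at 59.2, Olig2 at 21.6, Pdgfra at 96.3 and Cspg4 at 8.04 CPM. It was also lowest in Dcx at 207, Scarb1 at 12.8, Zfp36l1 at 31.1, Tmcc3 at 42.2, Sfrp1 at 341, Ier2 at 16.7 and Ldha at 142 CPM. It was set off above the rest in the neuronal genes Mapt at 667, Calb2 at 434, Cadm3 at 1127, and Astn2 at 157 CPM, and in Rfng at 53.3 CPM.

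TAM- replicate 21, the tumour with the lowest Cntn2 of all, was set off below the other TAM- Cntn2-low tumours in genes of granule neurons, with L1cam at 12.5, Stmn2 at 78.2, Neurod1 at 144, Fat2 at 2.35, Cntnap4 at 2.22 and Ephb1 at 12.8 CPM. TAM- replicate 23, in the same group, was highest in Mapt at 234, Mbp at 245, Ermn at 5.26, Sept4 at 128 and Rora at 80.2 CPM and lowest in Smo at 136 CPM. TAM- replicate 18 was lowest there in Btbd11 at 135, Ccnd1 at 452 and Stmn4 at 30.3 CPM, and TAM- replicate 5 highest in H19 at 94.0 and Cdh5 at 45.5 CPM.

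Among TAM- Cntn2-high tumours, TAM- replicate 16 was lowest in Dcx at 518 CPM and highest in Fos at 33.1, Esam at 25.1 and Cldn5 at 54.1 CPM. TAM- replicate 30 was lowest in Plxna2 at 43.3 CPM. TAM- replicate 3 had 605 CPM of Tle6, against at most 5.72 CPM in the low class, and the Tle6 call rests on it.

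Among TAM+ Cntn2-low tumours, TAM+ replicate 28 had 778 CPM of Col6a3 and 12.9 CPM of L1cam, its highest and lowest values. TAM+ replicate 12 was highest in Mbp at 853 and Rab3a at 101 CPM and lowest in Pdlim3 at 2.46, Mcm4 at 197 and Prom1 at 25.3 CPM. Single high values came from TAM+ replicate 13 in Tpm3-rs7 at 89.7 CPM, TAM+ replicate 4 in Efnb2 at 27.9 CPM, and TAM+ replicate 8 in Nsmf at 219 and Ldha at 575 CPM. In the TAM+ high group, TAM+ replicate 11 was highest in Sez6 at 172 and Zic1 at 2125 CPM.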

How the results depend on the processing

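The main counts were 2568 genes higher and 2044 lower. Leaving out each of the 40 libraries gave 2204 to 2757 higher and 1779 to 2331 lower. Counts moved by more than 1.5 times under the cerebellar score as covariate (1578 and 950), that score without TAM+ replicate 14 (1686 and 1095, chosen after seeing the data), the mitosis score (1154 and 820), TAM+ alone (932 and 455), TAM- alone (1010 and 507), titles of the earlier period alone (572 and 291) and of the later period alone (1314 and 813), and, for lower genes, classes that split each treatment group at its middle (1136). The subsets have fewer tumours; for the covariates the cause was not tested. DESeq2 gave 2856 and 2263. Of 121 named genes called, 111 kept the call in every fit without 1 library and 57 in all 16 other settings.

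Signs turned, with values near 0, under the cerebellar score for Aldoc (-0.064) and Itpr1 (-0.10), and with that score and without TAM+ replicate 14 (-0.065 and -0.10). They turned under the mitosis score for Ermn (-0.056) and Prkcd (-0.032). Tle6, at 2.70, had -0.057 without TAM- replicate 3, up to 2.87 without another library, and -0.076 in DESeq2. Without TAM+ replicate 28, Col6a3 did not pass (adjusted p = 0.173 in edgeR), and without TAM- replicate 5, H19 did not (adjusted p = 0.29 in edgeR). The interaction and both slope fits called 0 genes in every alternative run. No paired analysis was possible because replicate numbers follow accession order. Some titles share a date, but the labels do not say what it marks, and it was not used to pair tumours. Lazy Piggy libraries held at most 8667344 reads, so genes near 1 CPM rest on a few reads each.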

Other observations

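Reads of the transposon construct were counted in 10 rows apart from mouse genes. Their sum ran from 6 to 87 reads (median 17.5) in Cntn2-high tumours and from 2 to 1367 reads (median 14.5) in Cntn2-low tumours, and the highest value, 201 CPM, was that of a Cntn2-low tumour. One library labelled as a Lazy Piggy tumour, without a treatment label, entered no class. It had 210 CPM of Cntn2 and 32.0 CPM of Dcx, and its mitosis score was -0.20, below the range of 4.85 to 7.44 in the 40 classed tumours.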
